A study of Gallus gallus and Dromaius novaehollandiae and Alligator mississippiensis with 60 samples.

Results

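The genes described here are 94 chicken genes whose epidermal level peaked in the claw and that carried no emu or alligator value in the deposited expression table. They were chosen by 4 conditions among the 17889 genes of that table. All emu and alligator columns had to be empty, which left 5995 genes. Over the 10 chicken epidermis groups, the highest group mean had to reach 50 TPM (transcript abundance scaled for transcript length and library total), the means of log2(TPM + 1) had to span at least 2, and the highest of those means had to belong to a claw group. The chicken epidermis values therefore chose the members, and every contrast within chicken epidermis below is a description without a test.

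RNA sequencing was done on 60 skin libraries from embryos of chicken, emu and alligator, and the 30 chicken libraries are used here. Chicken epidermis was sampled from claws, reticulate scales, scutate scales, femoral tract feathers and dorsal tract feathers at morphogenesis and at the earlier placode stage, with 2 libraries in each group. Chicken dermis was sampled with 1 library for each appendage and stage. The Hamburger and Hamilton (HH) stages of the chicken embryo were 38 and 36 for claw morphogenesis and claw placode, 40 and 39 for reticulate scale, 40 and 37 for scutate scale, and 36 and 33 to 34 for both feather tracts. All skin was held in 10 mg/mL dispase, an enzyme that loosens epidermis from dermis, before the layers were parted. The labels give no strain, sex or other treatment. Claw placode and both feather tracts at morphogenesis share HH stage 36, but no claw group shares a stage with a scale group, so age and appendage cannot be told apart between claw and scale. Specimen numbers in the labels put the 30 libraries on 16 specimens, and the 10 dermis libraries on 8.

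A claw is a cornified sheath of epidermis that grows over the tip of the digit. In birds the hard layers of claws, scales and feathers are built by keratinocytes that fill with keratins and with corneous beta proteins, small structural proteins encoded by a large gene family whose copies differ in use between appendages. Feather and scale development begins at a placode, a thickening of the epidermis that signals to and from the dermis below it, and the appendage takes its shape during morphogenesis. The table pairs its gene identifiers with no names and no positions, and 0 of them matched the reference gene table, so no member is given a name or a role, and no list of named marker genes could be applied.

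The depth of the libraries is unknown, since TPM keeps no read numbers. Chicken columns summed to between 994044 and 999897 TPM, 10860 to 12158 genes reached 1 TPM in a library, and 0 of 435 pairs of chicken libraries were identical. In place of named dermis markers, 634 genes at least 4-fold higher in dermis than epidermis in each of the other 4 appendages were summed. Their sum was 9649 TPM in claw placode epidermis replicate 2, 3132 TPM in claw placode epidermis replicate 1, 4881 and 3689 TPM in claw morphogenesis epidermis, and 2239 to 4887 TPM in the 16 other epidermis libraries. It was 65752 TPM in claw morphogenesis dermis and 48333 TPM in claw placode dermis, against 53670 to 100664 TPM in the 8 other dermis libraries. The mirror list of 285 epidermis-high genes summed to 4881 TPM in claw placode dermis and 3263 TPM in claw morphogenesis dermis, against 1363 to 2015 TPM in the 8 other dermis libraries. Members were left out of both lists. Claw placode epidermis replicate 2 and both claw dermis libraries, placode more than morphogenesis, thus lay above those ranges in the signal of the opposite layer. The 16 other epidermis and 8 other dermis libraries chose both lists, and the claw libraries did not. Low sums of the opposite layer in those other libraries follow in part from that choice, so their ranges are no independent reference. In bulk samples, fewer cells of a type and less RNA per cell cannot be told apart.

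Of the 5995 genes without an emu or alligator value, 212 passed the cuts on level and range. Claw held the peak for 94 of these (44.3%), scale for 51 and feather for 67. Among the 11894 genes with an emu or alligator value, 724 passed the same cuts and 187 of them (25.8%) peaked in claw. The claw-peaking genes without such a value reached high levels: 27 of the 94 had a highest group mean of 1000 TPM or more. So did 5 of the 51 scale-peaking and 3 of the 67 feather-peaking genes. Among the 27, ENSGALG00000024138 and ENSGALG00000009189 reached it in scutate scale at morphogenesis and not in claw. The median range across groups was 4.38 on the log2 scale for the claw-peaking genes, beside 3.22 for the scale-peaking and 2.70 for the feather-peaking genes. The rule used these epidermis libraries, so these shares, counts and medians are a description and carry no test. On the cut of level, the members just inside had highest group means of 52.2 and 53.8 TPM and the genes just outside had 49.3 and 49.6 TPM. On the cut of range, the members just inside spanned 2.02 and 2.03 log2 units, and the genes just outside both spanned 1.99.

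The members took up a large part of the claw transcript pool. Their levels summed to 129382 and 125374 TPM in the claw morphogenesis epidermis libraries, which was 13.0% and 12.6% of the column totals. In claw placode epidermis the sums were 35993 TPM (3.61%) and 67811 TPM (6.78%). The 16 epidermis libraries of other appendages ran from 6161 to 23995 TPM with a median of 9176 TPM, so all 4 claw libraries lay above them. The claw dermis sums of 10279 TPM at morphogenesis and 9114 TPM at placode lay within the range of the other 8 dermis libraries, 5367 to 32941 TPM with a median of 9978 TPM. The highest of these, scutate scale morphogenesis dermis, owed 18938 TPM to ENSGALG00000017345 alone, a gene described with the dermis below.

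**Figure D1:**
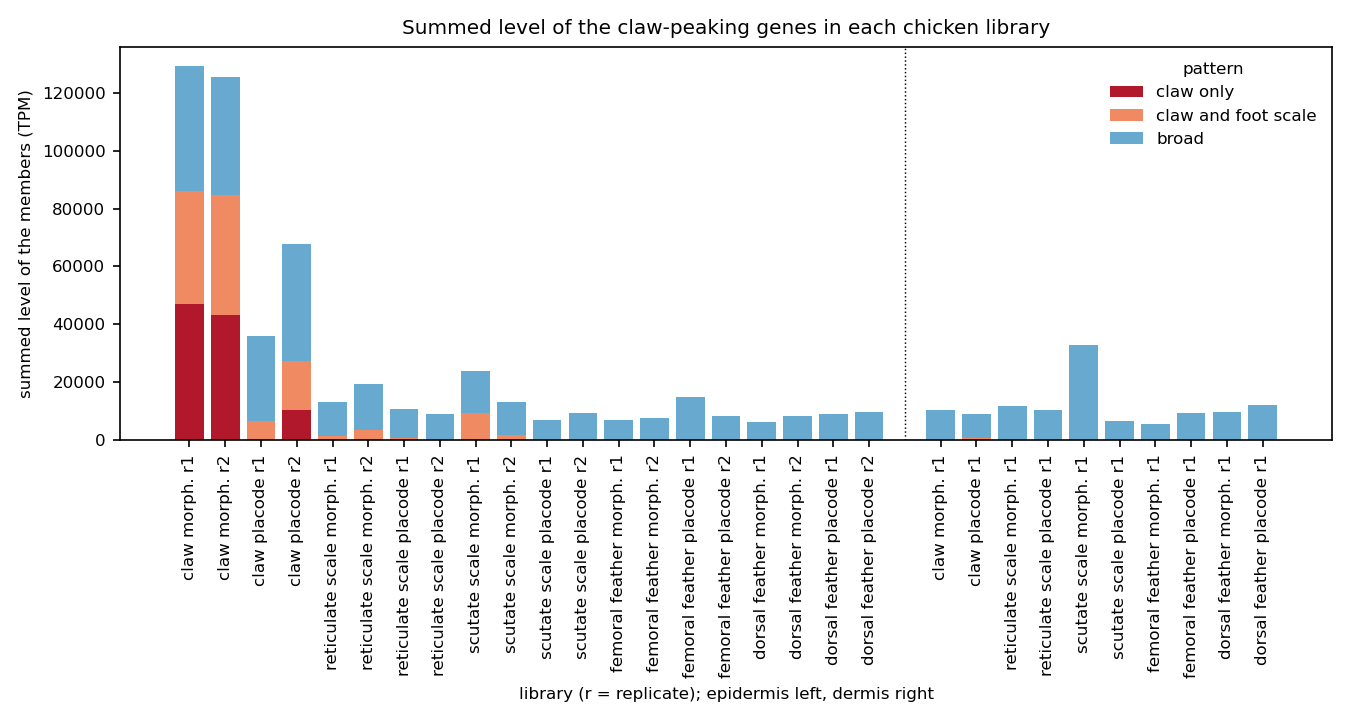
Stacked bars give the summed level of the 94 members in TPM (y axis) in each chicken library (x axis, r for replicate), coloured by expression pattern, with epidermis left of the dotted line and dermis right of it. The claw morphogenesis bars reach 129382 and 125374 TPM, and the claw only genes give a visible share in claw morphogenesis and in claw placode replicate 2.

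Claw and feather skin under the same specimen number, read from the sample titles, can be set side by side. Claw placode epidermis replicate 1 and replicate 2 of both feather tracts at morphogenesis share a specimen number at HH stage 36. The members summed to 35993 TPM in its claw placode epidermis, against 8212 TPM in its dorsal and 7716 TPM in its femoral feather epidermis. On the log2(TPM + 1) scale 30 members were at least 4-fold higher in that claw library than in the mean of both feather libraries and 0 were at least 4-fold lower, with a median difference of 1.24. The rule used these libraries and no share over all genes was taken, so the values describe that specimen number only.

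The members were divided into 3 patterns over the epidermis libraries after the values had been seen. The claw only pattern holds 26 members that stayed under 10 TPM in each of the 16 other epidermis libraries. The claw and foot scale pattern holds 13 members that stayed under 10 TPM in every feather epidermis library but not in every scale library. The broad pattern holds the other 55 members. All 26 claw only members peaked at morphogenesis, as did 12 of the 13 claw and foot scale members and 38 of the 55 broad members, so that 76 members peaked at claw morphogenesis and 18 at claw placode. The same condition was put to the counterparts, as a description: 0 of the 51 scale-peaking genes stayed under 10 TPM outside scales, and 1 of the 67 feather-peaking genes (1.49%) stayed under 10 TPM outside feathers, each over 12 other epidermis libraries, beside 26 of the 94 claw-peaking genes (27.7%).

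**Figure D2:**
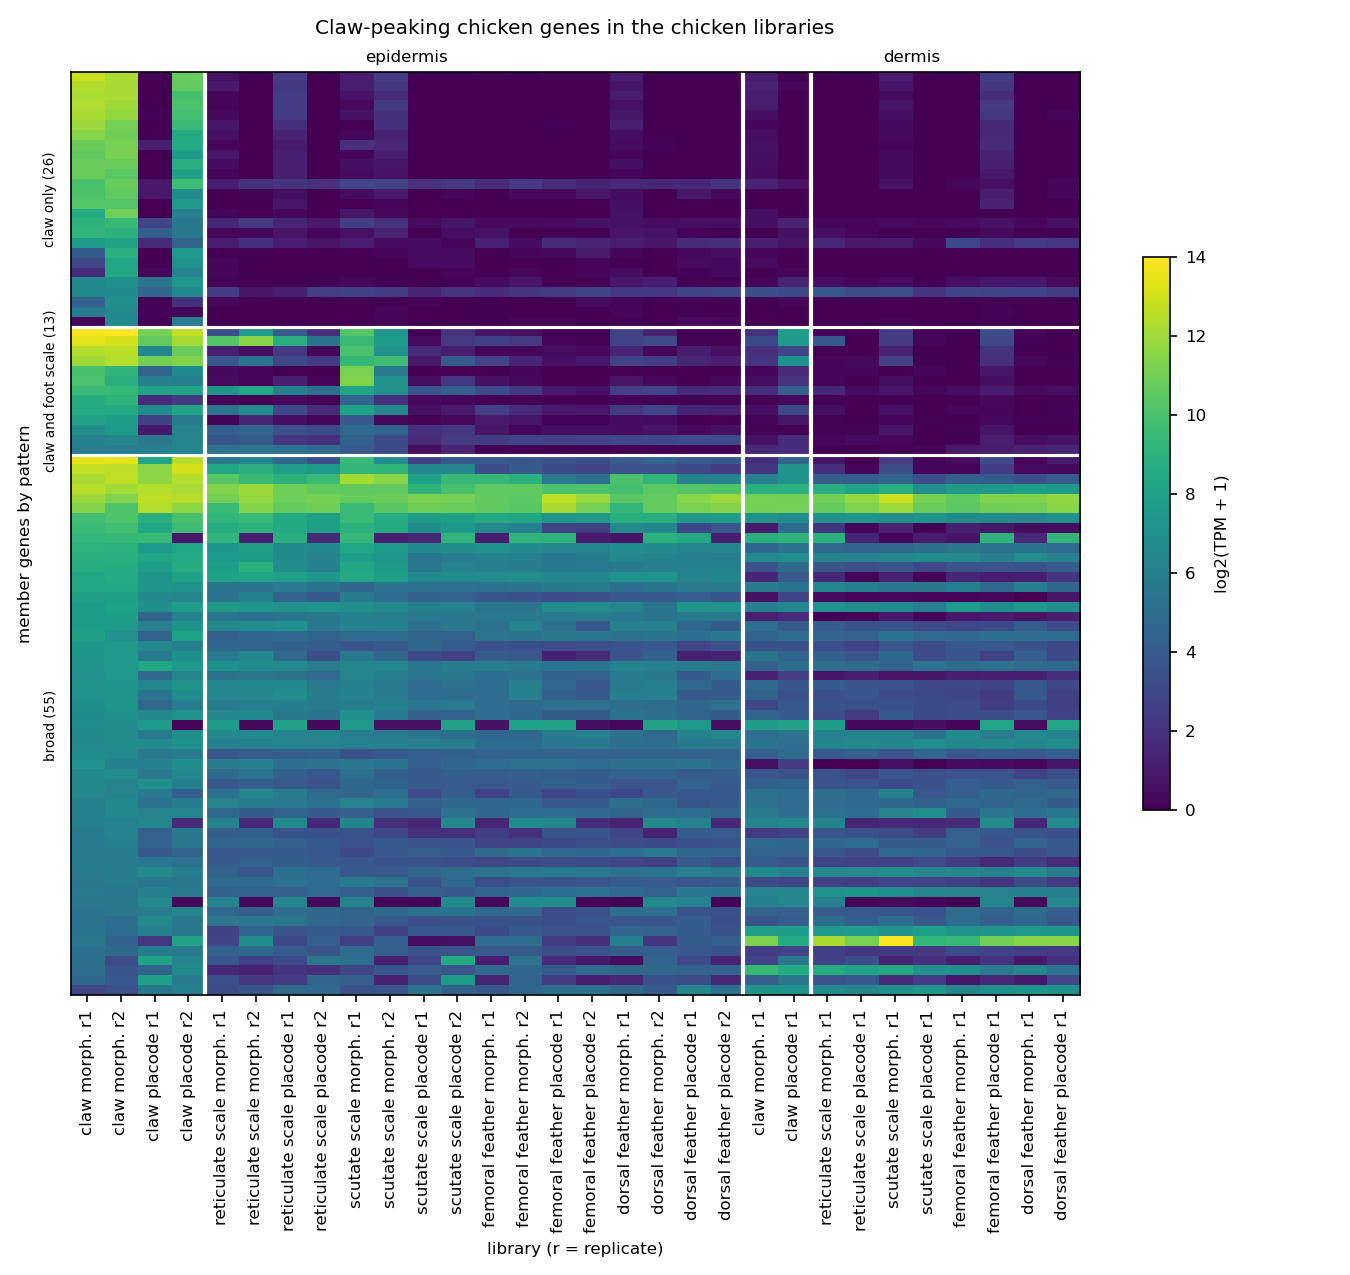
Colour gives log2(TPM + 1) of each of the 94 members (rows, grouped by pattern, in order of claw morphogenesis level) in each chicken library (columns, r for replicate), with claw epidermis first, then other epidermis, claw dermis and other dermis. Of the 26 claw only rows, 21 and 26 are at 20 TPM or more in claw morphogenesis replicates 1 and 2 and 24 in claw placode replicate 2, and most are dark in claw placode replicate 1.

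The 4 members with the highest group means belonged to the claw and foot scale pattern or to the broad one. ENSGALG00000024133, in the claw and foot scale pattern, had 14737 and 18087 TPM in claw morphogenesis epidermis and 2172 and 6801 TPM in claw placode epidermis. Its level in the 16 other epidermis libraries ran from 0 to 1291 TPM with a median of 2.12 TPM. Every claw library lay above every other epidermis library, and the highest other group was scutate scale at morphogenesis, with 728 ± 796 TPM (SD, n = 2).

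ENSGALG00000017530 had 11090 and 11274 TPM in claw morphogenesis epidermis, 283 and 5788 TPM in claw placode epidermis, and 5.22 to 758 TPM in the other epidermis libraries, with a median of 14.2 TPM. Its placode replicate 1 lay below 1 scutate scale morphogenesis library and above the rest of the other libraries. ENSGALG00000018943, in the claw and foot scale pattern, had 10724 and 8603 TPM in claw morphogenesis epidermis and 1569 and 4431 TPM in claw placode epidermis. It was also high in reticulate scale at morphogenesis, with 1228 and 2791 TPM, so that its lowest claw library lay below 1 reticulate library. ENSGALG00000018666 had 6829 and 6337 TPM in claw morphogenesis epidermis and 3039 and 8754 TPM in claw placode epidermis, so the stages overlapped. Its other epidermis libraries ran from 4.38 to 597 TPM with a median of 50.6 TPM, and scale libraries were higher than feather libraries throughout.

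Most claw only genes were abundant in claw epidermis at morphogenesis, and their placode replicates differed widely. Outside claw epidermis they were low in all tissue sampled. The highest dermis value was 13.5 TPM of ENSGALG00000021852 in reticulate scale morphogenesis dermis. The highest group means of the claw only genes ran from 52.2 to 6332 TPM with a median of 1297 TPM. The highest other epidermis library of any of them was 6.95 TPM. The claw group exceeded the highest other group by a median of 9.25 on the log2(TPM + 1) scale, a scale that understates the difference for low values. ENSGALG00000013668, singled out after its values were seen as the highest claw only gene, had 7760 and 4904 TPM in claw morphogenesis epidermis and 0.0534 and 1655 TPM in claw placode epidermis. In the other 16 epidermis libraries it ran from 0 to 4.75 TPM with a median of 0.0291 TPM. Claw only genes together gave 47067 and 43261 TPM in claw morphogenesis epidermis, 94.6 and 10510 TPM in claw placode epidermis, and at most 0.0981% of the claw morphogenesis mean in any other epidermis library.

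The 13 claw and foot scale genes had a median highest group mean of 702 TPM. A foot scale was the highest other group for all 13, which the definition of the pattern all but fixes. Claw exceeded that group by a median of 2.49 on the log2(TPM + 1) scale, and by at least 4-fold in 8 of the 13. Their sums were 39088 and 41352 TPM in claw morphogenesis epidermis, 6547 and 16754 TPM in claw placode epidermis, 9281 and 1806 TPM in scutate scale morphogenesis epidermis, and 1529 and 3532 TPM in reticulate scale morphogenesis epidermis. The scutate scale replicates differed widely. ENSGALG00000024138, chosen after its values were seen, had 995 and 439 TPM in claw morphogenesis epidermis, against 1369 ± 1729 TPM in scutate scale morphogenesis epidermis (SD, n = 2). ENSGALG00000009189, chosen likewise, had 973 and 572 TPM in claw morphogenesis epidermis, against 1210 ± 1631 TPM in scutate scale morphogenesis epidermis (SD, n = 2). In both genes 1 scutate library was higher than either claw library, and the mean of logs put the peak in claw while the mean of TPM put it in scutate scale. The mean of TPM was highest outside claw for 6 members in all.

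The 55 broad genes were lower, with a median highest group mean of 146 TPM, and closer between appendages. Claw exceeded the highest other group by a median of 0.91 on the log2(TPM + 1) scale, and by at least 4-fold in 9 of the 55. A foot scale was the highest other group for 40 of them. Across all 94 members, the claw mean of log2(TPM + 1) was at least 4-fold above the highest other group for 43. It was less than 2-fold above it for 30. Both the 43 and the 9 broad genes among them include ENSGALG00000000395, ENSGALG00000014366 and ENSGALG00000022174. Those genes followed the specimen rather than the appendage, as described below. The lowest claw library exceeded every other epidermis library for 23 members, and both libraries of the peak stage did so for 73. The highest other group was a scutate or reticulate scale at morphogenesis for 62 members. That count takes in the claw and foot scale genes, whose definition all but fixes a scale. The rule used these libraries and no share over all genes was taken, so nothing is read from any of these counts.

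Between the claw stages, 35 members were at least 4-fold higher at morphogenesis than at placode and 3 were at least 4-fold lower. The same thresholds took in 1.22% and 0.271% of 12536 genes. These were the genes at 1 TPM or more in at least 2 claw libraries, epidermis and dermis counted together. The median member difference was 1.11 on the log2(TPM + 1) scale, beside -0.17 over those genes. Morphogenesis libraries lay wholly above placode libraries for 54 members and wholly below for 11, and over all those genes the shares were 18.5% and 39.1%. By pattern, the median difference was 6.28 for claw only, 2.09 for claw and foot scale and 0.51 for broad genes. The rule used these libraries and peak stage entered it, so nothing is read from these counts.

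The claw replicates differed in a way that touches most of the claw only genes. Claw placode replicate 2 was at least 4-fold above replicate 1 for 30 members and at least 4-fold below it for 5, of which 4 are the specimen-splitting genes described below, and 37 members lay within 2-fold. The claw morphogenesis replicates were at least 4-fold apart for 6 members, all higher in replicate 2, and 82 lay within 2-fold. The Pearson correlation of log2(TPM + 1) across the 94 members was 0.26 between the placode replicates and 0.88 between the morphogenesis replicates, as a description of genes that share each library. Neither the counts nor the correlations were taken over all genes, so whether other genes differed as much is not shown.

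A set of 16 members, 15 of them claw only, was picked on these values. Each was under 2 TPM in claw placode replicate 1 and at 50 TPM or more in the other 3 claw libraries. The gap between that library and the others thus follows from the choice. Their levels ran from 125 to 7760 TPM in claw morphogenesis replicate 1 and from 191 to 4904 TPM in replicate 2. In claw placode replicate 2 they ran from 67.9 to 1655 TPM with a median of 418 TPM, and in claw placode replicate 1 from 0 to 1.26 TPM with a median of 0. Placode replicate 2 held 5.92% to 57.9% of the morphogenesis mean, with a median of 21.1%. These 16 genes summed to 45571 and 40275 TPM at morphogenesis, and to 9745 TPM in placode replicate 2 but 4.24 TPM in placode replicate 1. The 4 members with the highest group means had 283 to 3039 TPM in placode replicate 1, against 4431 to 8754 TPM in placode replicate 2. Claw placode replicate 2 also had the higher sum of dermis-high genes, given above, and the part of that difference in these values was not tested. In claw dermis the 16 genes stayed at or under 1.66 TPM.

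A further 5 members, all claw only, were low in both first replicates. They were picked for claw morphogenesis replicates at least 4-fold apart with replicate 1 under 50 TPM, so their gap at morphogenesis follows from the choice. They ran from 0.173 to 18.5 TPM in claw morphogenesis replicate 1 and from 104 to 467 TPM in replicate 2. In claw placode epidermis they ran from 0 to 0.154 TPM in replicate 1 and from 3.16 to 183 TPM in replicate 2. They stayed at or under 1.01 TPM in every other epidermis library. Their level of 104 TPM or more at claw morphogenesis therefore rests on 1 library, and 3 of the 5 were no longer members without it. The 6 remaining claw only genes belonged to neither set.

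**Figure D3:**
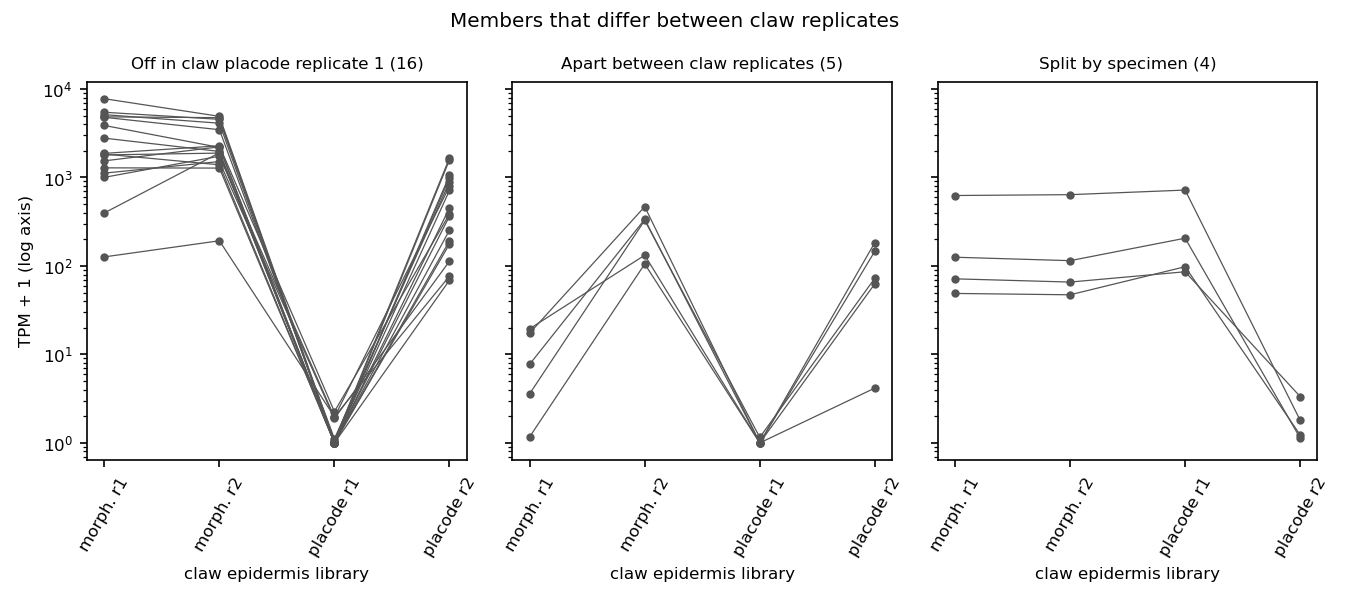
Each line joins 1 member over the 4 claw epidermis libraries (x axis), with TPM + 1 on a log axis (y axis), and the panels hold the 16 members near 0 in claw placode replicate 1, the 5 members apart between replicates at both stages, and the 4 members that split the specimens. In the first panel placode replicate 1 lies at or under 1.26 TPM while the other 3 libraries lie at 67.9 TPM or more, a gap that the choice of these members fixes.

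4 broad members followed the specimen rather than the appendage: ENSGALG00000000386, ENSGALG00000000395, ENSGALG00000014366 and ENSGALG00000022174, chosen after their values were seen. Each was over 20 TPM in the same 16 chicken libraries and under 5 TPM in the same 14. The genes were picked for libraries all under 5 or over 20 TPM, with several on each side, and for specimens wholly on 1 side. That each of the 9 specimens with 2 or more libraries lay wholly on 1 side thus follows from the choice. That the 4 genes took the same side in all 30 libraries was not a condition of it. In all, 9 specimens lay on the high side and 7 on the low side. Of the 10 epidermis groups, 9 had 1 library on each side, and claw morphogenesis was the group with both on the high side. The mean of log2(TPM + 1) of all 4 genes was highest in that group.

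Among the high-side libraries these genes were not all highest in claw. ENSGALG00000000395 ran from 46.2 to 96.96 TPM in the 3 high-side claw epidermis libraries, against 72.0 to 111 TPM in the 8 high-side epidermis libraries of other appendages. ENSGALG00000014366 ran from 113.7 to 205 TPM in claw epidermis, against 172 to 284 TPM in the others. ENSGALG00000022174 ran from 624 to 719 TPM in claw epidermis, against 349 to 632 TPM in the others. Of the 4 genes, only ENSGALG00000022174 had a higher median in claw. The labels do not give this division of specimens. 90 members are left without these 4 genes.

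**Figure D4:**
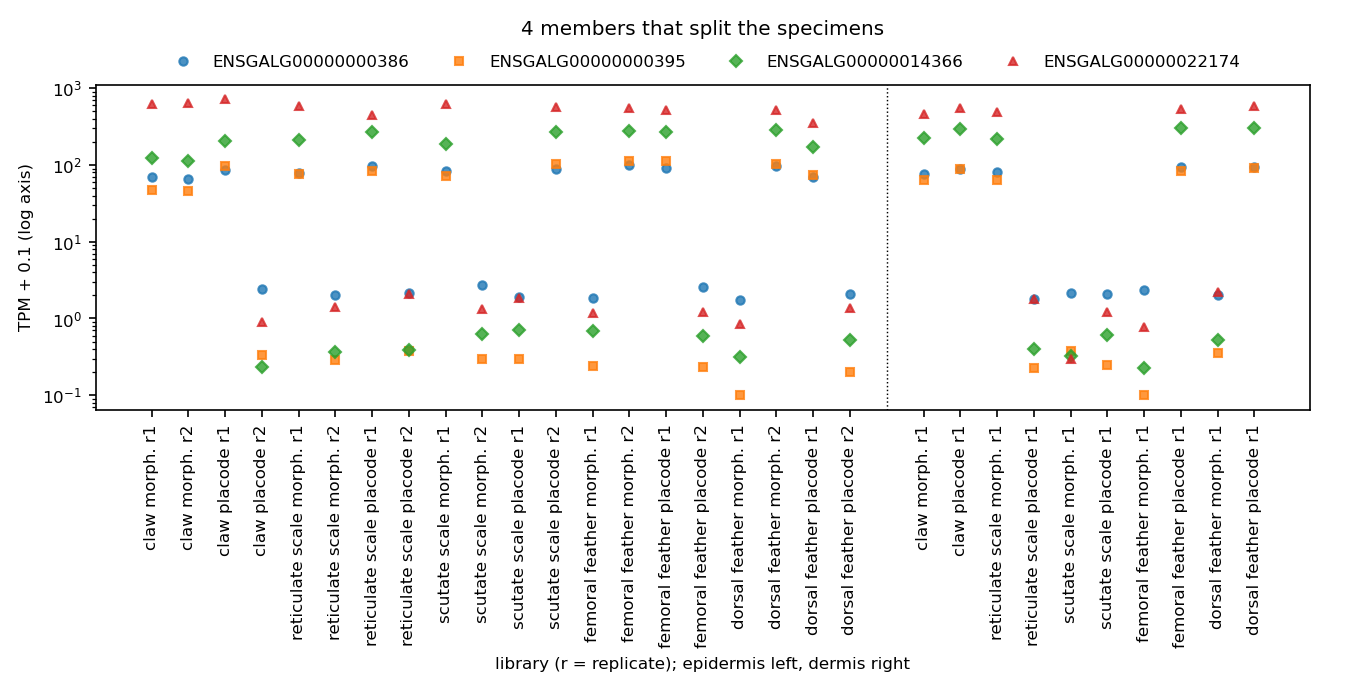
Points give TPM + 0.1 on a log axis (y axis) for 4 members in every chicken library (x axis, r for replicate), with epidermis left of the dotted line and dermis right of it. All 4 lie high in the same 16 libraries and low in the same 14, and both claw morphogenesis epidermis libraries are on the high side.

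In the claw, most members were higher in epidermis than in dermis. With stages averaged, 66 of the 94 were at least 4-fold higher in claw epidermis than in claw dermis, and 5 were at least 4-fold lower. Over 12536 genes the same thresholds took in 4.25% and 11.7%. The median member difference was 3.37 on the log2(TPM + 1) scale, beside -0.42 over those genes. The higher members were all 26 claw only genes, all 13 claw and foot scale genes and 27 of the 55 broad genes, and all 5 lower members were broad. Claw epidermis entered the rule, so this contrast carries no test.

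In claw dermis, 42 members reached 10 TPM in both libraries, 42 in neither, and 10 reached it at placode only. The 10 included the 4 highest members. ENSGALG00000024133 had 3.06 TPM in claw morphogenesis dermis and 218 TPM in claw placode dermis. ENSGALG00000018943 had 7.68 TPM in claw morphogenesis dermis and 197 TPM in claw placode dermis. ENSGALG00000018666 had 3.25 TPM in claw morphogenesis dermis and 152.1 TPM in claw placode dermis. ENSGALG00000017530 had 2.62 TPM in claw morphogenesis dermis and 23.0 TPM in claw placode dermis. Their highest value in the 8 other dermis libraries was 14.4 TPM. For the 10 genes, claw placode dermis held 5.00% to 52.2% (median 9.12%) of the level in claw placode epidermis replicate 1, which is from another specimen. The sum of epidermis-high genes was also highest in claw placode dermis, as given above, and its part in these values was not tested. The claw only genes were at or under 7.71 TPM there.

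**Figure D5:**
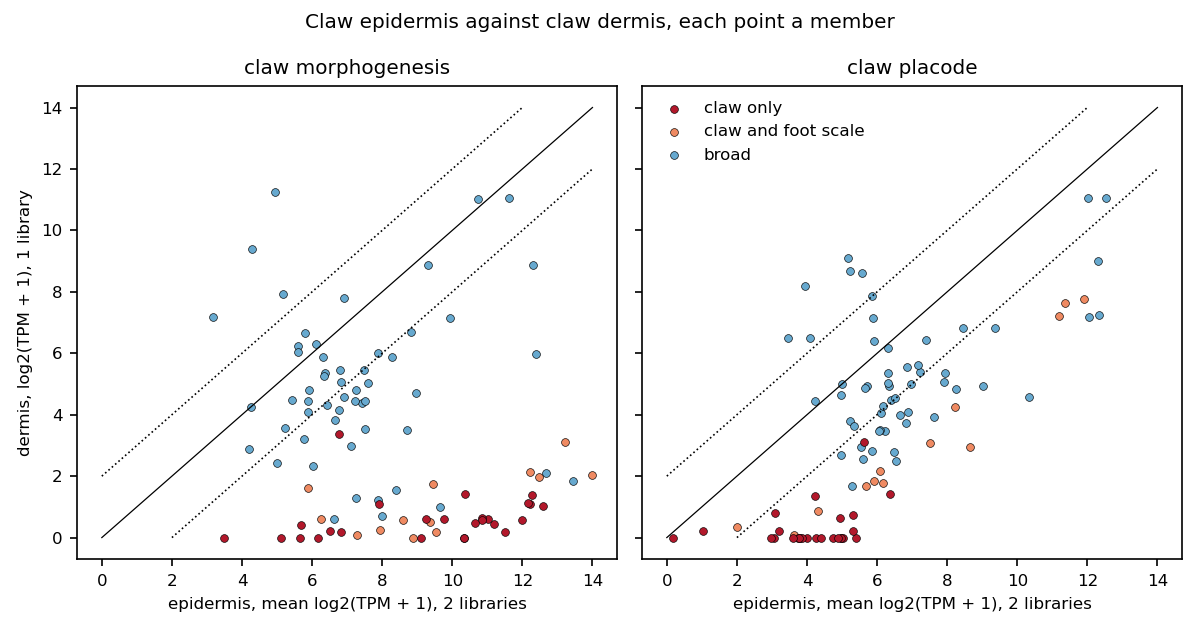
Each point is 1 member, with mean log2(TPM + 1) of 2 claw epidermis libraries on the x axis and log2(TPM + 1) of the 1 claw dermis library on the y axis, at morphogenesis and at placode, coloured by pattern. The solid line marks equality and the dotted lines 4-fold, and 66 members lie at least 4-fold towards epidermis when the stages are averaged.

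Claw dermis had the higher mean TPM for 10 members. All 4 specimen-splitting genes are among the 10, with both claw dermis libraries on their high side and claw placode epidermis replicate 2 on their low side. ENSGALG00000017345, chosen after its values were seen, had 46.0 and 19.4 TPM in claw morphogenesis epidermis and 3.82 and 293 TPM in claw placode epidermis, against 2414 TPM in claw morphogenesis dermis and 409 TPM in claw placode dermis. The other 8 dermis libraries held 610 to 18938 TPM of it. It and 3 more members, ENSGALG00000005551, ENSGALG00000007323 and ENSGALG00000025438, were no longer members without claw placode epidermis replicate 2. Of these, ENSGALG00000007323 was higher in claw epidermis than in claw dermis, by 1.65 on the log2(TPM + 1) scale with stages averaged. The part of that library's dermis-high sum, given above, in these memberships was not tested.

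The dermis libraries took no part in the choice of members, but all dermis specimens except number 100, claw placode dermis, also gave epidermis that the rule used. Claw morphogenesis dermis and claw morphogenesis epidermis replicate 2 are both specimen 56. The choice and the dermis values are thus not independent by specimen, and the part of this was not tested. Claw dermis was tested against the other dermis with limma on log2(TPM + 1). Stage was a covariate, with Benjamini-Hochberg adjustment over 12860 genes. Of the 94 members, 66 passed the filter of 1 TPM in at least 2 dermis libraries, 61 of them without counting the claw dermis. The 28 untested members, 20 of them claw only, 6 claw and foot scale and 2 broad, reached at most 7.47 TPM in any dermis library. At an adjusted p under 0.05, 5 of the 66 tested members (7.58%) were called, 4 higher and 1 lower in claw dermis. Over all tested genes 4.9% were called, 3.34% higher and 1.56% lower. At an unadjusted p under 0.05 there were 31 of the 66 members (47%) and 16.6% of all tested genes. The median difference was 0.44 for the tested members and 0.01 for all tested genes. Epidermis-high genes summed to 3263 TPM in claw morphogenesis dermis and 4881 TPM in claw placode dermis. The sum was at most 2015 TPM in the other dermis libraries, which had a part in choosing that list. Most members are higher in claw epidermis. The part of the epidermis-high signal in the higher calls was not tested.

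ENSGALG00000014616, a broad member, had 61.3 TPM in claw morphogenesis dermis and 142 TPM in claw placode dermis, against 9.28 to 22.3 TPM in the other 8 dermis libraries. Both claw dermis libraries lay above all others, and the log2 difference was 2.57 (SE 0.36, limma adjusted p = 0.00385). In epidermis it had 4519 and 6371 TPM at claw morphogenesis and 3137 and 5591 TPM at claw placode, and it was high in scutate scale at morphogenesis as well, with 4435 and 2954 TPM. ENSGALG00000007323, also broad, had 43.1 TPM in claw morphogenesis dermis and 31.0 TPM in claw placode dermis, against 82.2 to 110 TPM in the other 8 dermis libraries. It was lower in both claw dermis libraries than in all others, by a log2 difference of -1.32 (SE 0.16, limma adjusted p = 0.00186), while in epidermis it averaged 111 ± 9.93 TPM at claw morphogenesis and 125 ± 24.0 TPM at claw placode (SD, n = 2 each).

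The other 3 called members were higher in claw dermis. ENSGALG00000001519, a claw and foot scale member, had 2.37 TPM in claw morphogenesis dermis and 18.03 TPM in claw placode dermis, against 0.146 to 1.98 TPM in the other dermis libraries, a log2 difference of 2.32 (SE 0.56, limma adjusted p = 0.0425). ENSGALG00000010036 had 43.1 TPM and 21.1 TPM, against 6.30 to 27.1 TPM, a log2 difference of 1.21 (SE 0.27, limma adjusted p = 0.0324), and its groups overlapped. ENSGALG00000021233 had 22.7 TPM and 16 TPM, against 4.59 to 14.4 TPM, a log2 difference of 1.06 (SE 0.25, limma adjusted p = 0.0387).

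The dermis calls rest on few libraries. Claw placode dermis was the claw library with the highest epidermis-high sum. Without it, none of the 4 higher calls was kept, with the lone claw dermis library assumed to vary as the others do. The log2 difference of ENSGALG00000007323 was then -0.97. Calls over all genes fell as well, so no result about the members is read from that setting. With both feather tracts of each feather specimen averaged, which leaves 8 specimens, 2 members were called, ENSGALG00000014616 higher and ENSGALG00000007323 lower. Over all tested genes 3.32% were called in that setting, against 4.9% in the main test. With foot scale dermis alone as reference, none of the 4 higher calls was kept either, and 2.44% of all tested genes were called. ENSGALG00000007323 was called lower and ENSGALG00000018427 higher. ENSGALG00000018427 passed the filter there only through claw dermis, at 2.07 and 2.45 TPM, against at most 0.1955 TPM in scale dermis. Nothing is therefore read from its call. ENSGALG00000007323 was called under all 16 other settings and ENSGALG00000014616 under 14 of them, while ENSGALG00000010036 and ENSGALG00000021233 were called under 7 each and ENSGALG00000001519 under 3.

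Between stages in dermis, morphogenesis against placode with appendage as a covariate, limma called 0 of the 66 tested members and 2 of 12860 genes (0.0156%) at an adjusted p under 0.05. At an unadjusted p under 0.05 there were 16 members (24.2%) and 17.8% of all tested genes, and no other tool was run. The smallest adjusted p of a member was 0.083. The members' median stage difference in dermis was -0.04 on the log2(TPM + 1) scale, beside -0.05 for all tested genes.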

How the data were processed

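Poly(A) RNA of dissected epidermis and dermis was sequenced from strand-specific libraries, per the labels' protocols. CASAVA, TopHat2 2.0.6 and HTSeq 0.5.3p9 are named in the submitters' processing notes, with no role or order (genome build: not given in the sources used here). TPM (transcript abundance) per chicken gene was deposited by the authors in 1 table, with emu and alligator values on chicken identifiers, whose scaling and matching between species no label or header describes. All members and lists were chosen with earlier results of these data known.

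Members were found by the stated rule from TPM as deposited. Claw dermis was compared with other dermis, and morphogenesis with placode dermis, by limma 3.58.1 in R 4.3.3 (eBayes with trend and robust fit, pseudocount 1, at least 1 TPM in 2 of 10 dermis libraries, Benjamini-Hochberg). The tests were checked on simulated data. Alternatives were other cuts, a pseudocount of 0.1, no filter, median-of-ratios rescaling, no trend or robust fit, feather tracts averaged by specimen, foot scale dermis as the sole reference, and leaving out each claw epidermis library (counts of members) or each dermis library (dermis tests). Named identifiers are the 4 members with the highest group mean and those called in dermis, and others are said to be chosen after their values were seen. Specimen numbers come from the sample titles. The labels call epidermis replicates biological. Emu and alligator columns served only to find empty genes.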

Additional observations from a re-analysis of the deposited data

Results flagged for a closer look

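3 members moved in opposite directions between the claw stages in the 2 layers: all claw epidermis libraries were at least 2-fold higher at morphogenesis than at placode, while the single claw dermis library was at least 4-fold lower. The difference between layers was not tested, since each claw dermis stage has 1 library. The dermis difference of morphogenesis minus placode on the log2(TPM + 1) scale was -5.76 for ENSGALG00000024133. For ENSGALG00000001519 it was -2.50. For ENSGALG00000019717, a broad member singled out by this contrast after its values were seen, it was -2.10. Claw placode dermis, the higher library in each case, also had the highest sum of epidermis-high genes among the dermis libraries, at 4881 TPM, and its part in these differences was not tested.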

How the results depend on the processing

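The rule found 61 members with a range of at least 3, 129 and 69 with a level minimum of 25 and 100 TPM, 117 with a range of at least 1.5, 96 with a pseudocount of 0.1 and 131 after median-of-ratios rescaling, which kept all 94, and 93 to 99 without 1 claw epidermis library. Rescaling moved the median of all genes from -0.42 to -0.04 for claw epidermis minus claw dermis, where 72 members were then at least 4-fold higher, and from -0.17 to -0.02 between claw stages, where 41 were at least 4-fold apart. Without 1 claw epidermis library these counts ran from 65 to 66 and from 31 to 42. The claw only pattern held 23 members under 5 TPM and 30 under 20 TPM, limits chosen after seeing the data. In the claw dermis test, 2 members were called after rescaling, 2 with the replicate block by specimen, where feather tracts of a specimen were averaged, and 2 with foot scale dermis alone as reference, against 5. The shares of all tested genes called were 4.7%, 3.32% and 2.44%, against 4.9%. Leaving out 1 dermis library gave 2 to 7, with 2 without claw placode dermis, 2 without dorsal feather placode dermis and 2 without dorsal feather morphogenesis dermis; the cause was not tested. The dermis stage test called 0 members under every alternative run. TPM keeps no depth, so counting error cannot be given for any value.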

Other observations

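Some members had near identifiers. Another member lay within 5 identifier numbers for 30 of the 94 claw-peaking genes (31.9%), beside 2 of the 51 scale-peaking (3.92%) and 9 of the 67 feather-peaking genes (13.4%). The lists differ in length, and a longer list has more near pairs by its length alone, so the shares are not compared. The table gives no positions, so whether these genes are neighbours in the genome is not shown here, and members of a copied family could share reads.

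Traces of the claw only genes were present outside claw. Their sum relative to the claw morphogenesis mean was 0.0981% in scutate scale morphogenesis epidermis replicate 2, 0.0897% in reticulate scale placode epidermis replicate 1 and 0.0947% in femoral feather placode dermis, and 0.00827% in scutate scale placode dermis, the lowest. The source of these traces was not tested.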
